A study of Bos grunniens and Bos grunniens x Bos taurus with 6 samples.

Results

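The genes described here are 10 markers of the vessel wall, followed through single-cell RNA libraries of yak and cattle-yak testis: PECAM1, CDH5, VWF, KDR, EMCN, CLDN5, CA4, DNASE1L3, MMRN1 and RELN. They were chosen by symbol, and each symbol matched 1 of the 26961 features in the files. The libraries came from a cattle-yak (the hybrid of cattle and yak, whose males are sterile) after sexual maturity (1 library), from yaks (Bos grunniens) aged 6 months, before puberty (2 libraries, numbered 1 and 2), from adolescents aged 18 months (2 libraries, numbered 3 and 4) and from a sexually mature yak aged 4 years (1 library, number 5). All were made from frozen testis that was thawed, digested with enzymes and held in culture medium before loading, and the labels name no strain, treatment or number of animals, so the p-values given below describe how far these libraries spread, which may be technical. The cattle-yak and the yak of 4 years have 1 library each and are described without a test.

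Endothelium lines every blood and lymph vessel as a single sheet of cells. PECAM1 and CDH5 (VE-cadherin) hold neighbouring endothelial cells together, and CLDN5 seals their tight junctions. KDR is the main receptor through which the growth factor VEGF acts on these cells. EMCN is a mucin-like surface protein of capillaries and veins, and VWF is the clotting protein that endothelium stores in its granules. CA4 is a carbonic anhydrase anchored on the luminal face of capillaries, and DNASE1L3 is a secreted nuclease that digests DNA in plasma and is also made by macrophages and dendritic cells. MMRN1 (multimerin 1) and RELN (reelin) are secreted proteins made by lymphatic endothelium in mouse and human, MMRN1 also by platelets and RELN also by neurons. In the testis, the capillaries run between and around the seminiferous tubules, outside the barrier that Sertoli cells form.

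Of 40564 barcodes, 29243 cells were kept, and the 10 genes took no part in their clustering or naming. Cells called endothelial-like, from 11 markers such as TIE1, ERG, ROBO4 and CLEC14A, numbered 561 of 3642 in the cattle-yak, 218 of 7396 and 176 of 5670 at 6 months, 715 of 3978 and 644 of 3994 at 18 months, and 1526 of 4563 at 4 years. None of those 11 markers was at 0 in any library, and their summed level lay between 850 and 1422 CPM, the counts of RNA molecules (UMIs) of a gene scaled to the total of the summed cells. The class was held by different clusters in different libraries: 1 cluster for most cells of 6 and 18 months, 1 for the cattle-yak, 1 of only 4-year cells, and 2 lymphatic clusters. The 4-year cells had the lowest median depth, at 1361.5 UMIs against 2132 to 3861 elsewhere, and the highest mitochondrial share, at 10.7% of UMIs against 3.21% to 7.76%. Summed spermatid markers reached 407 CPM in the 4-year endothelial-like cells and at most 0.5 CPM in those of the other libraries. Summed mural markers (pericytes and smooth muscle) reached 2831 CPM in replicate 3 of 18 months, against 164 to 960 CPM in the other libraries.

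CA4, CDH5, PECAM1, KDR, EMCN, VWF and CLDN5 each had their highest level in endothelial-like cells in 6 of 6 libraries. Against the highest value of any other class in any library, CDH5 (lowest endothelial library 161 CPM, highest other 101 CPM), VWF (49.4 and 26.7 CPM), KDR (105 and 95.7 CPM) and EMCN (455 and 363 CPM) did not overlap. PECAM1 (206 and 228 CPM), CA4 (1014 and 1280 CPM) and CLDN5 (17.99 and 27.9 CPM) did overlap with mural-like cells. These levels are a description, since cells of a cluster set against the rest are no test. Endothelial-like cells held 90.5% of all CA4 UMIs counted in cells with a class name, 90.6% of CDH5, 88.5% of KDR, 85.4% of EMCN, 83.4% of PECAM1, 75.2% of CLDN5 and 61.7% of VWF. With every cell thinned to 500 UMIs, between 25.3% and 64.0% of endothelial-like cells in a library had a CA4 UMI, against 0.0819% to 1.30% of stroma-like cells, whose median depth was 1044 to 1450 UMIs. The corresponding range was 20.4% to 39.8% for EMCN against at most 3.99% in stroma-like cells, and 9.66% to 14.7% for PECAM1 against at most 0.498%.

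**Figure D1:**
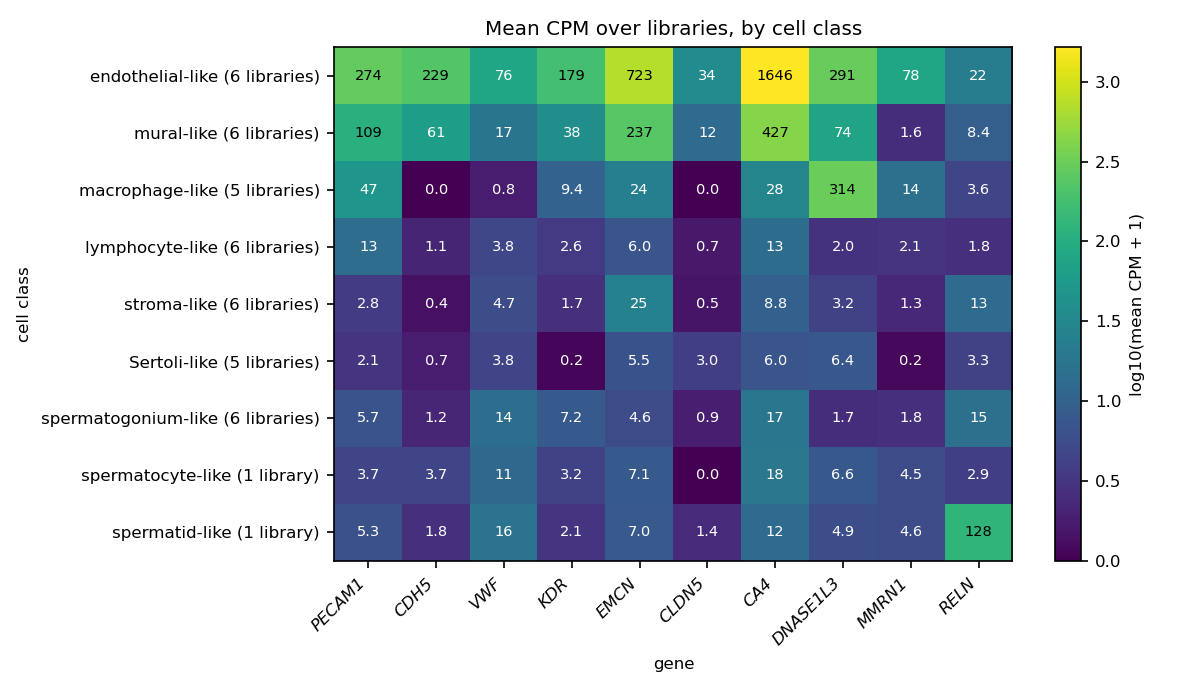
Mean CPM of each gene (columns) in each cell class (rows) over libraries with enough cells of the class, with the value printed in each field and the colour on a log10 scale. The top row, endothelial-like cells, is the brightest for 8 of the 10 genes, whereas DNASE1L3 reached 314 CPM in macrophage-like cells and RELN 128 CPM in spermatid-like cells.

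The next class for 7 of these genes was mural-like cells, and 1 cluster carried it. That cluster of 238 cells, 129 of them from the 4-year library, had a median of 5144 UMIs and levels of 1085 CPM for CA4, 549 CPM for EMCN and 259 CPM for PECAM1. The other 2 mural-like clusters, with medians of 2477 and 2751 UMIs, had 12.6 and 23.1 CPM of CA4, 76.2 and 27.7 CPM of EMCN and 4.71 and 3.08 CPM of PECAM1. Whether pairs of cells read as 1 contributed to that cluster was not tested.

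DNASE1L3 and RELN were not particular to the vessel wall. DNASE1L3 averaged 291 CPM over the 6 libraries of endothelial-like cells and 314 CPM over 5 libraries of macrophage-like cells, and was highest in endothelium in 3 of 6 libraries. Replicate 1 of 6 months counts among these 3, but its 18 macrophage-like cells were too few to be compared. RELN was highest in spermatid-like cells, at 128 CPM in the 4-year library, where 736 such cells were found and where endothelial-like cells had 81.2 CPM. It was highest in endothelial-like cells in 1 of 6 libraries. Its median over 6 libraries was 16.2 CPM in spermatogonium-like, 9.12 CPM in stroma-like and 6.25 CPM in endothelial-like cells. Endothelial-like cells held 28.6% of RELN UMIs, against 90.8% of MMRN1 UMIs. MMRN1 was highest in endothelial-like cells in 5 of 6 libraries, with 110 CPM in the cattle-yak, 40.7 and 3.36 CPM at 6 months, 0.559 and 24.5 CPM at 18 months and 289 CPM at 4 years. In replicate 3 of 18 months, the exception, 2 MMRN1 UMIs were counted in the whole class.

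Within the 3840 endothelial-like cells, subclusters were named from vessel-bed markers that included none of the 10 genes. An arterial-like group of 275 cells had GJA4 (a gap junction protein of arteries) at 1140 CPM, HEY1 at 95.5 CPM and BMX at 70.8 CPM. A lymphatic-like group of 363 cells had PROX1, the transcription factor that sets lymphatic identity, at 107 CPM and the chemokine CCL21 at 3948 CPM. A group of 46 cells was led by the interferon-induced genes CXCL10, CXCL9, CXCL11 and IDO1, and is called CXCL10-led here. Of the 9 venous markers it had ACKR1 (223 CPM), VCAM1 (465 CPM) and IL1R1 (23.0 CPM) raised, but the venous factor NR2F2 was at 11.5 CPM, against 24.9 CPM in the remaining cells, EPHB4 was at 0 and the arterial gene GJA4 stood at 564 CPM, against 114 CPM in the remaining cells, so it was given no vessel bed. The remaining 3146 cells formed 6 subclusters with no name, because the capillary list was not raised in them: RGCC had 62.7 CPM, TIMP4 63.4 CPM and MFSD2A 28.0 CPM, while CD36, BTNL9 and PLVAP were at 2.1 CPM or less and 4 of its 10 genes were not among the files' symbols. A marker counted as raised against the other subclusters, so genes shared by these 6 could hardly be raised. That rule does not decide whether the remaining cells are capillary. A further 10 cells of the 4-year library with 0 PECAM1 and 0 CDH5 UMIs were set aside.

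CA4 and DNASE1L3 were both lowest in lymphatic-like and next lowest in arterial-like cells. CA4 was 19.6 CPM in lymphatic-like, 499 CPM in arterial-like and 1252 CPM in CXCL10-led cells, against 2067 CPM in the remaining cells. DNASE1L3 was 10.7 CPM in lymphatic-like, 64.2 CPM in arterial-like and 376 CPM in CXCL10-led cells, against 344 CPM in the remaining cells. The intervals for counting error alone (95%, exact Poisson) did not overlap for CA4 between any pair of groups, and overlapped for DNASE1L3 between the CXCL10-led cells (305 to 458 CPM) and the remaining cells (333 to 356 CPM). In each of the 6 libraries CA4 was lower in arterial-like than in the remaining cells, with 157 against 1828 CPM in the cattle-yak, 407 against 1332 and 0 against 1293 CPM at 6 months, 723 against 2454 and 1033 against 3138 CPM at 18 months and 9.57 against 1263 CPM at 4 years. The arterial-like groups of 6 months held only 8 and 14 cells.

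PECAM1 had the reverse pattern in arterial-like cells. It reached 627 CPM there, against 233 CPM in the remaining cells, 263 CPM in lymphatic-like and 269 CPM in CXCL10-led cells, and arterial-like cells were above the remaining cells in 6 of 6 libraries. VWF had 14.2 CPM in lymphatic-like and 21.4 CPM in arterial-like cells over all libraries, against 119 CPM in CXCL10-led and 79.0 CPM in the remaining cells. At 4 years the gap was narrow, with 76.6 CPM in arterial-like cells (8 UMIs) against 96.6 CPM in the remaining cells of that library, and the other 5 libraries had 0 to 43.6 CPM in arterial-like cells against 51.8 to 111 CPM in the remaining cells. KDR was 87.2 CPM in lymphatic-like and 121 CPM in arterial-like cells, against 217 CPM in the remaining cells. Within libraries, KDR in lymphatic-like cells was below the remaining cells in the cattle-yak (112 against 171 CPM) and at 4 years (64.8 against 401 CPM), but above them in replicate 1 of 6 months (633 against 114 CPM, from 6 UMIs) and replicate 4 of 18 months (113 against 110 CPM, from 4 UMIs). EMCN varied less, with 360, 439 and 480 CPM in lymphatic-like, arterial-like and CXCL10-led cells and 689 CPM in the remaining cells. CDH5 was 103 CPM in lymphatic-like cells and 230 to 271 CPM in the other 3 groups summed over libraries. Most lymphatic-like cells came from libraries where CDH5 was lowest in the remaining cells too. CDH5 had 138 CPM in lymphatic-like against 147 CPM in the remaining cells of the cattle-yak, and 105 against 165 CPM at 4 years. In replicate 4 of 18 months 0 CDH5 UMIs were counted in the 22 lymphatic-like cells. The 113 CPM of KDR there stood for 4 UMIs, so this 0 does not show absence of CDH5. The unnamed subclusters of that library with at least 20 cells had 129 to 207 CPM. The part of the library mix was not tested. CLDN5, at 26.9 to 58.5 CPM, had overlapping intervals in most groups.

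The 6 unnamed subclusters of the remaining cells followed the libraries more than any marker list. A subcluster of 537 cells and one of 412 cells held most cells of 6 months and of replicate 4 of 18 months, one of 583 cells was almost wholly replicate 3 of 18 months, one of 435 cells was mostly cattle-yak, and 2 were 4-year cells. CA4 lay between 1036 and 2477 CPM in all 6, so each was far above the 19.6 CPM of lymphatic-like cells, and PECAM1 lay between 132 and 284 CPM. Within the 4-year library, the subcluster of 777 cells had KDR at 592 CPM and CA4 at 1036 CPM, against 235 and 1468 CPM in the subcluster of 402 cells, with median depths of 1076 and 2311 UMIs and DNASE1L3 alike at 480 and 500 CPM. In the 2 subclusters that mixed 6 and 18 months, the one of 412 cells had VWF at 147 CPM and KDR at 231 CPM, against 59.9 and 99.9 CPM in the one of 537 cells, with median depths of 1508 and 4256 UMIs. In both pairs the shallower subcluster had the higher KDR, and the part of depth was not tested.

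**Figure D2:**
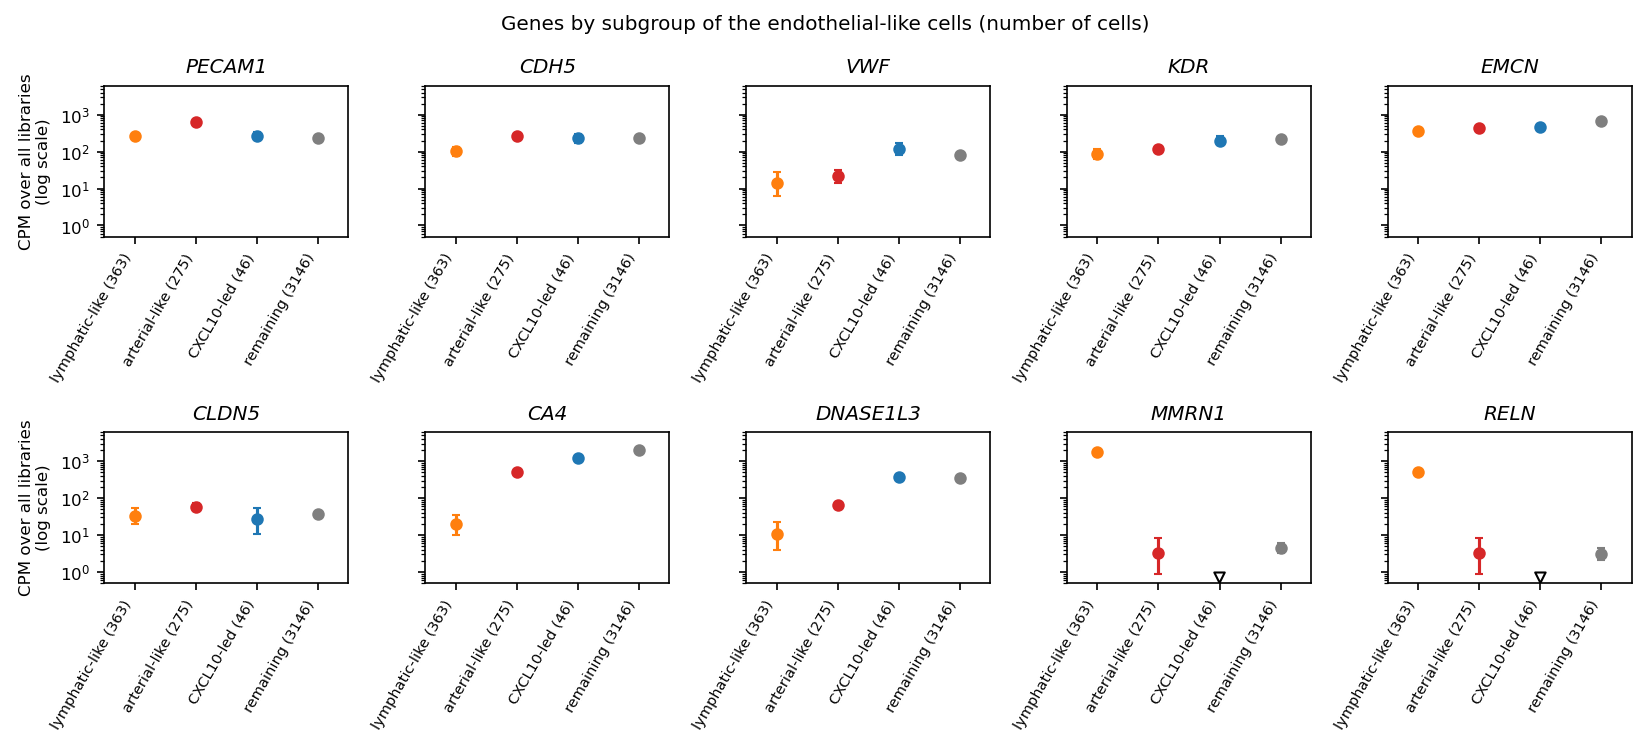
CPM of each gene, on a log axis, in the lymphatic-like, arterial-like, CXCL10-led and remaining endothelial-like cells summed over all libraries, with 95% Poisson intervals for counting error; an open triangle marks 0 UMIs. CA4 is lowest in lymphatic-like cells (19.6 CPM) and highest in the remaining cells (2067 CPM), DNASE1L3 is low in the lymphatic-like and arterial-like cells, and MMRN1 and RELN stand at 1819 and 497 CPM in lymphatic-like cells alone.

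MMRN1 and RELN lay almost wholly in lymphatic-like cells, which held 95.4% of the MMRN1 and 88.9% of the RELN UMIs of the class. MMRN1 reached 1819 CPM and RELN 497 CPM in them, against 4.54 and 3.12 CPM in the remaining cells. In the CXCL10-led cells, 0 UMIs of either gene were counted, which allows up to 11.5 CPM. The level within the lymphatic-like cells varied less between libraries than their number. MMRN1 was 1703 CPM in the cattle-yak (60 cells), 3271 CPM in replicate 1 of 6 months (8 cells), 1359 CPM in replicate 4 of 18 months (22 cells) and 1858 CPM at 4 years (273 cells), and RELN in the same libraries was 553, 422, 340 and 496 CPM. Lymphatic-like cells made up 10.7% of endothelial-like cells in the cattle-yak (8.26% to 13.5%, exact binomial 95% interval), 3.67% and 0% at 6 months, 0% and 3.42% at 18 months and 17.9% at 4 years (16.0% to 19.9%). The shares of 0% are 0 of 176 and 0 of 715 cells, which allow up to 1.70% and 0.420%. A library of each age thus had these cells. At 6 and at 18 months the other library had none, so the shares of these ages overlap. Lymphatic-like cells had a median mitochondrial share of 14.7%, against 8.27% in the remaining cells, and median depths of 1408 and 2162.5 UMIs. With at most 10% mitochondrial UMIs, MMRN1 UMIs of the class fell from 779 to 126 at 4 years and from 202 to 29 in the cattle-yak. CA4 UMIs fell from 2736 to 1738 and from 2499 to 1904. At that limit the cells were also clustered and named anew, and no endothelial-like cluster had CCL21 or MMRN1 among its leading genes. The parts of cell removal and of naming in these falls were not tested. The shares were not recounted at that limit. PECAM1 (263 CPM) and EMCN (360 CPM) were also present in lymphatic-like cells, while CA4 had 11 UMIs over 363 cells.

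**Figure D3:**
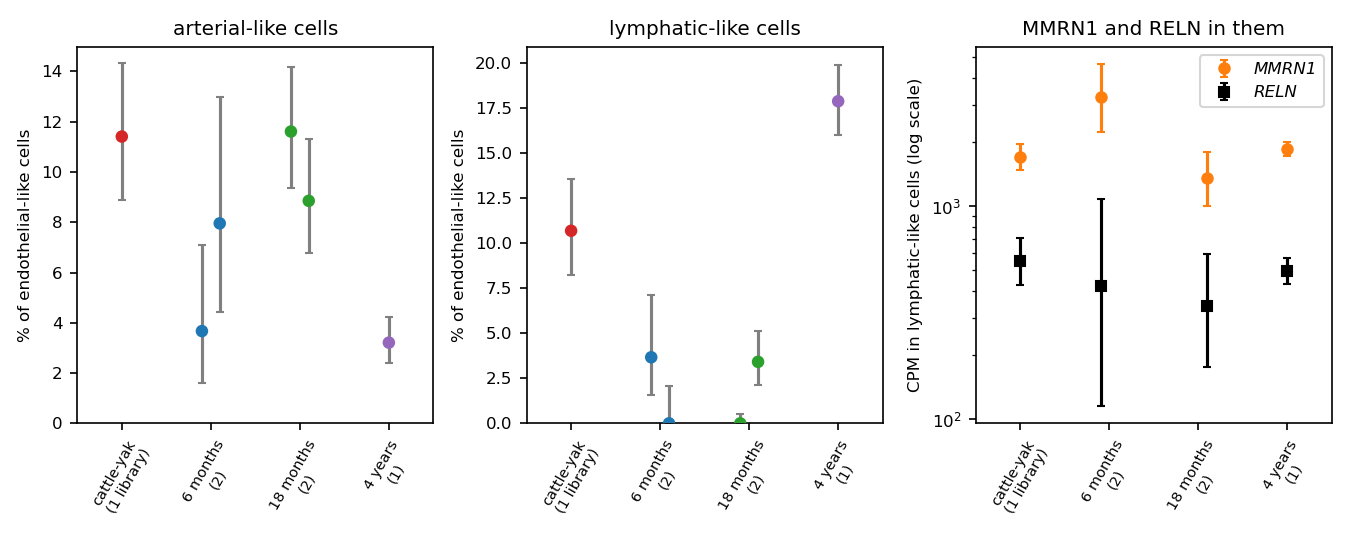
Left and middle, arterial-like and lymphatic-like cells as a percentage of endothelial-like cells in each library, with exact 95% binomial intervals; right, CPM of MMRN1 (circles) and RELN (squares) in the lymphatic-like cells, on a log axis with Poisson intervals, for the 4 libraries that had such cells. The lymphatic-like share spans 0% to 17.9% over libraries, while MMRN1 within those cells spans 1359 to 3271 CPM.

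Cell by cell, the same separation was seen without the use of subgroups. In endothelial-like cells thinned to 500 UMIs, 1537 cells had a CA4 UMI and 195 an MMRN1 UMI, but only 2 had both, where the product of the shares gives 78.0. CA4 and RELN were found together in 2 cells against 32.0, and DNASE1L3 and RELN in 0 cells against 9.44. MMRN1 and RELN were found together in 49 cells against 4.06, and CA4 and DNASE1L3 in 239 against 181. KDR and DNASE1L3 met in 80 cells against 51.3, whereas VWF and CA4 met in 60 against 60.8. These counts pool libraries that differ in their shares, and they are given without a test.

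Other genes with the most similar pattern were ranked over 20 sums of 1 subcluster in 1 library each, among 3465 genes with a symbol, by the correlation of log2(CPM + 10). The sums share libraries and depth, and the r values are a description. MMRN1 and RELN had the same 3 genes: PKHD1L1, the chemokine CCL21 and the membrane glycoprotein GPM6A, each at r = 0.99. MMRN1 had 1359.5 to 1858 CPM in the lymphatic-like sums and at most 38.3 CPM in the others, so these r rest on that contrast. CCL21 was also among the markers that named the lymphatic-like cells. CA4 was most like the activin antagonist FST (r = 0.94), ITM2B (0.92) and NOSTRIN (0.91), which binds endothelial nitric oxide synthase. DNASE1L3 was most like ST8SIA4 (0.90), the lipoprotein receptor SCARB1 (0.89) and ESM1 (0.88), a proteoglycan secreted by endothelial cells. PECAM1 was most like ADGRF5 (0.78), CAV1 (0.77) and the arterial connexin GJA4 (0.77). VWF ran with COL12A1 (0.85), MCM7 (0.84) and ROBO4 (0.82), KDR with CHST15 (0.80), ITGA1 (0.79) and ATAD1 (0.78), CDH5 with ETS1 (0.94), TMPO (0.94) and CCT4 (0.93), EMCN with TSPAN6 (0.88), SNRPB (0.87) and RPLP0 (0.86), and CLDN5 with CIR1, DERL1 and SIK2 (each 0.77). Among the 10 genes themselves, r was 0.99 between MMRN1 and RELN, 0.86 between CA4 and DNASE1L3 and −0.81 between CA4 and MMRN1.

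Between 18 and 6 months, CA4 and CLDN5 were higher and VWF and EMCN lower in all pairs of libraries, but 0 of the 9 genes tested passed the test. CA4 had 2215 and 2846 CPM at 18 months, against 1253 and 1185 CPM at 6 months, a log2 fold change of 0.99 ± 0.47 (SE; edgeR quasi-likelihood test on counts summed per library, adjusted p = 0.949). CLDN5 had 48.7 and 43.0 CPM at 18 months, against 27.6 and 26.9 CPM at 6 months (log2 0.66 ± 0.38; edgeR adjusted p = 0.998). VWF had 61.5 and 49.4 CPM at 18 months, against 84.0 and 106 CPM at 6 months (log2 −0.88 ± 0.37; edgeR adjusted p = 0.856). EMCN had 597 and 709 CPM at 18 months, against 948 and 1084 CPM at 6 months (log2 −0.70 ± 0.44; edgeR adjusted p = 0.998). For these 4 of the 9 genes both libraries of 18 months lay on the same side of both of 6 months in CPM, as they did for 29.8% of all 7301 genes tested.

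The other 5 tested genes overlapped between the ages. PECAM1 had 313 and 206 CPM at 18 months against 291 and 271 CPM at 6 months, CDH5 326 and 174 against 277 and 268 CPM, and KDR 209 and 105 against 117 and 151 CPM, with replicate 3 the highest and replicate 4 the lowest of the 4 libraries for all 3 genes. DNASE1L3 had 357 and 284 CPM at 18 months, between the 459 and 190 CPM of 6 months. MMRN1 had 0.559 and 24.5 CPM at 18 months, against 40.7 and 3.36 CPM at 6 months. RELN was under the filter on low counts, with 2 and 16 UMIs at 18 months, against 4 and 0 UMIs at 6 months.

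Over all 7301 genes tested in endothelial-like cells, 20 (0.274%) passed, 13 of them higher at 18 months. Before adjustment, edgeR gave a p below 0.05 to CA4 and VWF, 2 of these genes, and to 381 genes in all. DESeq2 called 0 of the 9 and 17 genes in all. Without replicate 3, the library with the high mural signal, CA4 passed at a log2 fold change of 1.31 (edgeR adjusted p = 0.0369); that fit has 1 library of 18 months, which is assumed to vary like the pair of 6 months. The summed mural markers had 2831 and 960 CPM at 18 months, against 164 and 323 CPM at 6 months. Of the 10, 3 were tested, of which TAGLN passed (log2 2.93, edgeR adjusted p = 0.019) and RGS5 (log2 0.11) and MYL9 (log2 0.22) did not. None of the 10 was at 0 at 18 months, in sums of 3575739 and 2207007 UMIs, against 5 and 4 at 0 at 6 months, in the smaller sums of 761909 and 892641 UMIs. Their part in the result was not tested. In simulated data of the same size the test recovered 67.1% of 4-fold but 6.19% of 2-fold changes, so a 2-fold change could not be detected reliably.

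**Figure D4:**
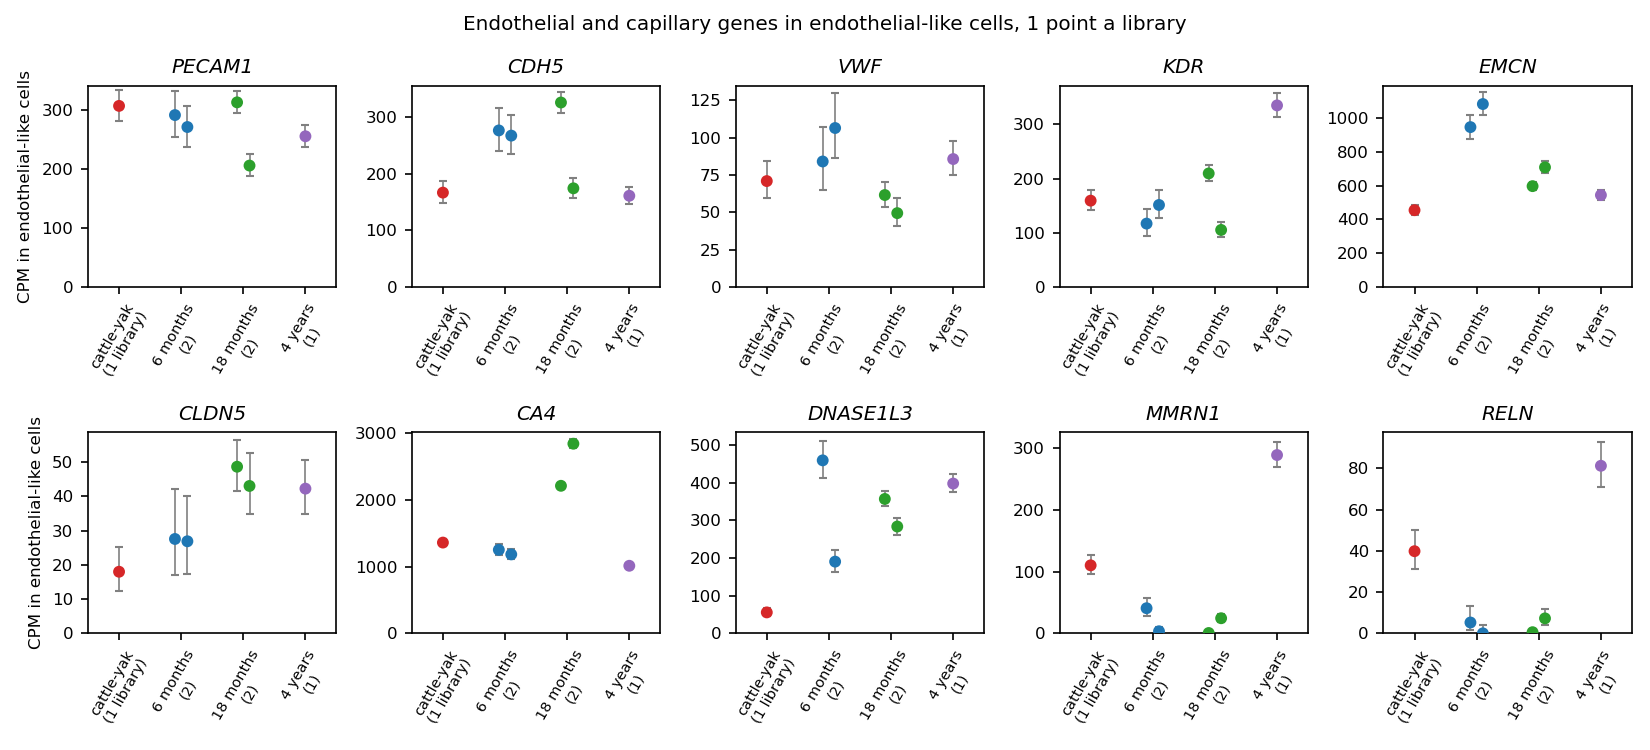
CPM of each gene in endothelial-like cells, 1 point a library, with 95% Poisson intervals for counting error; each panel has its own axis from 0. CA4 at 18 months (2215 and 2846 CPM) stands above the other 4 libraries, DNASE1L3 is lowest in the cattle-yak (55.6 CPM), and MMRN1 and RELN are highest at 4 years.

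Of the vessel-bed and pathway genes, 0 passed between 18 and 6 months in each of 8 lists (edgeR). Of the capillary list, 3 genes were tested (median log2 0.54, against 0.02 for all genes), with RGCC at 0.83 and the lipid transporter MFSD2A at 0.54. Of the arterial list, 4 were tested (median −0.17), with the connexins GJA4 at −0.39 and GJA5 at −0.23. Of the venous list, 3 were tested (median 0.18), with the leukocyte receptor SELP at 0.50 and the transcription factor NR2F2 at 0.18. Of the lymphatic list, 2 were tested (median −0.31), with CCL21 at −0.73 and SEMA3D at 0.12.

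Of VEGF and angiopoietin signalling, 6 genes were tested (median 0.36), with the pericyte-recruiting growth factor PDGFB at 0.81 and the receptor TIE1 at 0.61. Of junction and adhesion genes, 6 were tested (median −0.14), with ESAM at −0.59 and the cadherin-binding catenin CTNND1 at −0.41. Of Notch genes and endothelial transcription factors, 16 were tested (median 0.18) and 12 were above 0. Among them the flow-responsive factor KLF4 had 518 and 189 CPM at 18 months, against 117 and 86.3 CPM at 6 months (log2 1.64, edgeR adjusted p = 0.243), and the Notch target HES1 had 138 and 101 CPM, against 47.2 and 40.3 CPM (log2 1.35, edgeR adjusted p = 0.304). Of haemostasis and granule genes, 9 were tested (median −0.38). TFPI, the inhibitor of tissue factor, had 57.1 and 31.3 CPM at 18 months, against 102 and 148 CPM at 6 months (log2 −1.63, edgeR adjusted p = 0.110), and thrombomodulin, THBD, had 9.51 and 6.80 CPM, against 3.94 and 0 CPM (log2 2.01, edgeR adjusted p = 0.938). With sums of 761909 and 892641 UMIs at 6 months, the THBD levels of that age rest on very few UMIs.

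Summed over whole libraries, where fewer cells of a type and less RNA per cell cannot be told apart, 0 of the 10 genes passed between 18 and 6 months, when 2.58% of 13553 genes did. CA4 had 468 and 508 CPM at 18 months, against 66.4 and 91.1 CPM at 6 months (log2 1.68 ± 0.51, edgeR adjusted p = 0.122). KDR had 48.0 and 18.7 CPM, against 7.21 and 11.1 CPM (log2 0.72 ± 0.38, edgeR adjusted p = 0.314), and RELN had 10.6 and 6.08 CPM, against 2.50 and 1.17 CPM (log2 1.08 ± 0.50, edgeR adjusted p = 0.252). RELN was mostly counted outside the vessel wall. Over all libraries endothelial-like cells held 28.6% of its UMIs, against 90.5% for CA4 and 88.5% for KDR. In endothelial-like cells of these ages RELN was under the filter on low counts. In 9 of the 10 genes, all but MMRN1, both libraries of 18 months lay above both of 6 months in CPM, as they did for 64.8% of all 13553 genes tested. These log2 fold changes are relative to the median gene, which TMM scaling sets near 0. Scaled by library totals, the median of all genes was higher by 1.07, CA4, KDR and RELN passed (log2 2.63, 1.87 and 2.17) among 3043 genes in all, and EMCN and MMRN1 changed sign. At an unadjusted p below 0.05 stood 1 of the 10 genes, CA4, and 3117 of all genes, and DESeq2 called 1 of the 10, CA4, and 1231 in all. The share of endothelial-like cells among kept cells was 17.97% and 16.1% at 18 months, against 2.95% and 3.10% at 6 months.

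**Figure D5:**
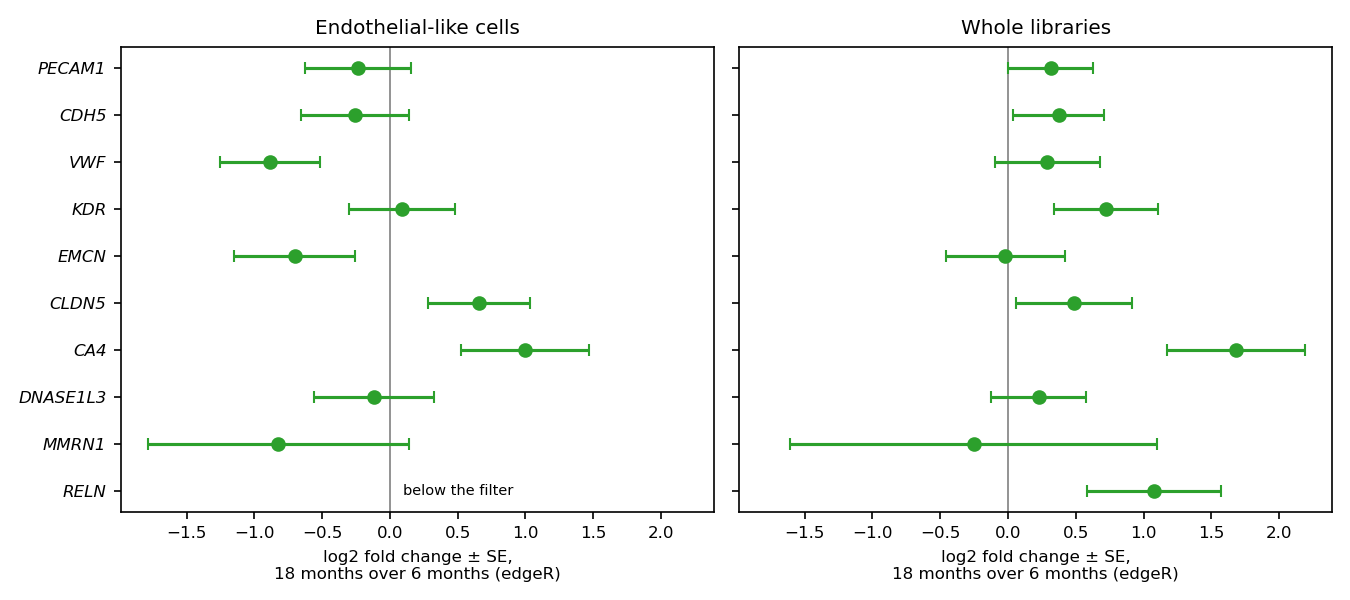
Log2 fold change of each gene at 18 months over 6 months with its standard error (edgeR, 2 libraries against 2), in endothelial-like cells (left) and in whole libraries (right). None passed in either fit; RELN was below the count filter in endothelial-like cells, and CA4 had the highest value in both, at 0.99 and 1.68.

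DNASE1L3 gave the widest gap between the cattle-yak and the yak of 4 years, which have 1 library each and no replicate check. It had 55.6 CPM in endothelial-like cells of the cattle-yak (102 UMIs), against 398 CPM in those of the yak of 4 years (1073 UMIs), a log2 ratio of −2.84 (−3.15 to −2.54, counting error only). In the remaining cells alone, without lymphatic-like, arterial-like and CXCL10-led cells, the values were 69.5 CPM and 490 CPM. In macrophage-like cells the order was the other way, with 272 CPM in the cattle-yak (70 UMIs, 84 cells) and 94.98 CPM in the yak of 4 years (8 UMIs, 53 cells). The cattle-yak value in endothelial-like cells was also below all 4 libraries of 6 and 18 months.

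KDR had 159 CPM in the cattle-yak and 335 CPM in the yak of 4 years (log2 −1.07), CLDN5 17.99 and 42.3 CPM (−1.23), MMRN1 110 and 289 CPM (−1.39) and RELN 39.8 and 81.2 CPM (−1.03). Of the 10 genes, 5 were thus lower in the cattle-yak by 2-fold or more and 0 higher. Among 8867 genes, 21.3% were lower and 3.56% higher by as much, and the median log2 ratio was −0.30. The ratios given here are not scaled to that median. The count of 5 genes became 3 with at most 10% mitochondrial UMIs, and 4 with endothelial cells gated one by one or in the remaining cells. RELN was at −0.45, −0.14 and −0.66 in these. The 4 in the remaining cells include MMRN1, from 5 UMIs in the cattle-yak and 29 UMIs at 4 years. CA4 had 1362 CPM in the cattle-yak and 1014 CPM in the yak of 4 years (log2 0.43), EMCN 455 and 544 CPM (−0.26), VWF 70.9 and 85.6 CPM (−0.27) and CDH5 167 and 161 CPM (0.05). PECAM1 turned with the cells counted: it had 307 CPM in the cattle-yak and 255 CPM in the yak of 4 years over the whole class (log2 0.27), but 142 and 242 CPM in the remaining cells (−0.77), beside 917 and 574 CPM in arterial-like cells, which made up 11.4% of the class in the cattle-yak and 3.21% in the yak of 4 years. Lymphatic-like cells made up 10.7% of the class in the cattle-yak and 17.9% in the yak of 4 years. Within them MMRN1 had 1703 and 1858 CPM, and RELN 553 and 496 CPM. Endothelial-like cells of the 2 libraries came almost wholly from different clusters.

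At 4 years, set against 18 months, the lymphatic pair stood apart and CA4 was lower. MMRN1 had 289 CPM at 4 years, against 0.559 and 24.5 CPM at 18 months (log2 4.90 over the summed libraries, 4.51 to 5.32 for counting error). RELN had 81.2 CPM, against 0.559 and 7.25 CPM (log2 4.70). The lymphatic-like share of the class was 17.9% at 4 years, against 0% and 3.42% at 18 months. Within lymphatic-like cells MMRN1 had 1858 CPM at 4 years, against 1359.5 CPM in replicate 4 of 18 months, and RELN 496 against 340 CPM. CA4 had 1014 CPM at 4 years, against 2215 and 2846 CPM at 18 months (log2 −1.28), and 1263 CPM in the remaining cells at 4 years, against 2454 and 3138 CPM there at 18 months. Of the 10 genes, 2 were higher and 1 lower by 2-fold or more, where 16.7% of 10251 genes were higher and 10.1% lower by as much. CA4, the lower one, was under 2-fold at −0.92 with at most 10% mitochondrial UMIs and −0.998 with the gate per cell. KDR had 335 CPM at 4 years, above the 209 and 105 CPM of 18 months (log2 0.98). Its log2 ratio was past 2-fold at 1.0996 with the gate per cell and 1.21 in the remaining cells. With at most 10% mitochondrial UMIs it was lower, at 0.79 (0.61 to 0.98 for counting error). The other 6 genes had log2 ratios from −0.73 (CDH5) to 0.59 (VWF), with PECAM1, CLDN5 and EMCN between −0.23 and −0.09. DNASE1L3 was at 0.27 (0.16 to 0.38 for counting error). It was at 0.46 in the remaining cells, 0.45 with the gate per cell and 0.51 with at most 10% mitochondrial UMIs. These differences were not tested.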

How the data were processed

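Single-cell RNA was measured in 6 10x Genomics libraries of testis. The authors deposited UMI counts for every feature and barcode, without normalisation. Cell Ranger made them, in version 5.0.0 per the file headers; the submitters' processing notes name 2.1.1. No genome build is named in the sources used here, and positions are not reported. Totals were 9575446 to 24762829 UMIs a library, and libraries shared 5 to 16 barcodes. Barcodes under 300 genes or above 20% mitochondrial UMIs were dropped, and doublets were removed by rank of the Scrublet score (0.8% per 1000 barcodes), because the threshold of Scrublet itself marked 0 or 1 barcode in 4 libraries.

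Cells were clustered in scanpy 1.11.5 (2000 variable genes, 30 components, 15 neighbours, Leiden resolution 2) with the 10 genes left out. A cluster was named, with "-like", where at least 3 markers and 0.333 of a list were raised 2-fold over other clusters (10 CPM added). Endothelial-like cells were subclustered likewise (20 components, resolution 1), and 1 subcluster that met this rule for veins was left unnamed because its other markers went against the name. CPM are UMIs of a gene scaled to the total of the summed cells; 3' counts do not allow levels to be compared between genes. Class means use libraries with at least 20 cells. Intervals and limits for 0 (3 counts) cover counting error only, at 95%. The members and lists were chosen with earlier results of these data known.

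Counts summed per library were tested between 18 and 6 months with edgeR 4.0.16 (R 4.3.3; quasi-likelihood, TMM, filterByExpr, Benjamini-Hochberg over all genes, threshold 0.05), with DESeq2 1.42.0 as an alternative. Named genes are the 10 members, the 3 genes most like each (at least 20 CPM on average, sums of at least 20 cells), and in each list those that passed or otherwise the 2 with the largest change. Simulated data tested the code (3.23% of calls false in endothelial-like cells). The 2-fold ratios between single libraries use genes with at least 20 UMIs in both groups together.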

Additional observations from a re-analysis of the deposited data

Results flagged for a closer look

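Some genes went one way in endothelial-like cells and the other way in another class; none of these differences was tested. EMCN, in CPM, was lower at 18 than at 6 months in endothelial-like cells (log2 ratio of mean CPM −0.64) but higher in stroma-like cells (2.41), with 15.0 and 18.9 CPM at 18 months against 3.66 and 2.70 CPM at 6 months, a difference of −3.05, and in Sertoli-like cells (1.21), with 4.20 and 3.73 CPM against 1.62 and 1.81 CPM, a difference of −1.85. The endothelial-like share of cells was also higher at 18 months, at 17.97% and 16.1% against 2.95% and 3.10%, and its part in these low levels was not tested. Between the cattle-yak and the yak of 4 years, DNASE1L3 was lower in endothelial-like cells (−2.84) and higher in macrophage-like cells (1.52, counting interval 0.46 to 2.79), a difference of −4.36. PECAM1 (0.27 against −1.52) and CA4 (0.43 against −1.11) were higher in endothelial-like and lower in mural-like cells, differences of 1.78 and 1.54; 129 of the 238 cells of the mural-like cluster that carries both genes came from the 4-year library. EMCN was lower in endothelial-like (−0.26) and higher in stroma-like cells (1.21), a difference of −1.47.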

How the results depend on the processing

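In endothelial-like cells, 0 of the tested members passed between 18 and 6 months under each alternative (10% mitochondrial limit, doublets kept, gate per cell, Leiden resolution 1, members allowed in clustering, DESeq2, library totals, no filter, and, chosen after seeing the data, without arterial-like and lymphatic-like cells), and between 0 and 1 with a replicate left out, which leaves 1 library of an age, assumed to vary like the other pair. The genes called in all, 20, were 49 without arterial-like and lymphatic-like cells, 91 with no filter and 39 to 113 with a replicate left out. Leaving out a replicate turned the sign of KDR (−0.26 to 0.37), DNASE1L3 (−0.63 to 0.61) and MMRN1 (−5.35 to 1.85). In whole libraries the members called were 1 with DESeq2 and 3 by library totals, and the genes called, 349, were 839 at the 10% limit, 1231 with DESeq2, 3043 by library totals, 2206 with no filter and 0 to 2401 with a replicate left out (0 without replicate 2 or 3, with 2088 and 2273 at an unadjusted p below 0.05). There EMCN (−0.02) became 0.30 at the 10% limit and 0.95 by library totals, MMRN1 (−0.25) became 0.50 by library totals, and with a replicate left out the ranges of EMCN (−0.46 to 0.36), MMRN1 (−3.53 to 2.21), VWF (−0.037 to 0.57) and DNASE1L3 (−0.069 to 0.48) crossed 0. For single libraries, members lower or higher by 2-fold in the cattle-yak were 3, not 5, at the 10% limit, where VWF (−0.27) was −0.87; PECAM1 became −0.77 in the remaining cells, and EMCN at 4 years over 18 months became 0.0025 at the 10% limit. The cause was not tested. At subcluster resolution 0.5 no arterial-like cells of 4 years were named. A group of 41 cells was again led by CXCL10, CXCL9 and CXCL11, with no lead of the venous list over the arterial list. No paired analysis was possible because the ages tested, 18 and 6 months, share no replicate numbers. Depth limits RELN, CLDN5 and MMRN1 most, with under 60 UMIs of each in several libraries.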
